A study of Mus musculus with 6 samples.

Results

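The narrowest promoter regions with the histone mark H3K4me3 were 1568 regions of exactly 500 bp in GFP-positive cells sorted from female mouse embryos. They were chosen by their listed width and by the authors' annotation class in the longer of 2 H3K4me3 lists. A width of 500 bp is the smallest of that list and is held by 4311 of its regions, so it may not give the extent of the mark. That list, H3K4me3 replicate 1, holds 8129 regions, of which 3559 carry the promoter class promoter-TSS. The 1568 make up 44.1% of the promoter regions and 19.3% of the list. They were compared mainly with the other 1991 promoter regions, which were 625 to 3832 bp wide (median 784 bp) and are called the wider regions below.

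H3K4me3, trimethylation of lysine 4 on histone H3, is laid down by SET1 and MLL enzymes around transcription start sites (TSS) of active or poised genes, often those in CpG islands. The general transcription factor TFIID can read the mark through its subunit TAF3, and TAF4b is a gonad-enriched relative of the TFIID subunit TAF4 that mouse ovaries need for a normal supply of oocytes. The width of an H3K4me3 domain differs between genes.

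The libraries were made by CUT&RUN, in which an antibody guides a nuclease to its target and the released DNA is sequenced. All came from female embryos of strain C57BL/6 at E16.5 (E counts embryonic days), when oocytes are in meiotic prophase, wild type for Taf4b and from matings of mice homozygous for an Oct4-EGFP transgene, the label naming the line B6;129S4-Pou5f1tm2Jae/J. Live GFP-positive cells were sorted, so the sample is whatever cells carry the reporter, and with no gene names in the lists the cell type was not checked against marker genes. H3K4me3, TAF4b and IgG have 2 libraries each. The labels do not tell whether the 2 libraries of a target came from different animals, and IgG was not analysed here, so no background stands beside the values. The files give no read totals and depth is unknown. H3K4me3 replicate 2 lists 320 regions, TAF4b replicate 1 lists 983 peaks of 90 bp and TAF4b replicate 2 lists 1111 peaks of 134 bp.

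The width limit fell in a gap of the list. No region of any class was wider than 500 bp and narrower than 625 bp, and the nearest promoter regions outside the limit were 42 of the latter width. These 42 had a median score of 51 (range 32.5 to 99.8), were centred at a median of -39.5 bp from the nearest TSS (negative values are upstream), and held a TAF4b peak in 12 cases and a replicate 2 region in 4. The first members by position, at chr1:5088792-5089292, chr1:14825666-14826166 and chr1:24044282-24044782, had scores of 27.8, 34.8 and 27.8. The first of the 42 by position, at chr2:72810622-72811247, chr2:162772562-162773187 and chr3:40848228-40848853, had scores of 60.3, 51 and 58. Width, score, position and class come from the library that chose the members, so they are described with no test.

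The members mostly had lower scores than the wider regions, with overlap. Their score, a peak score in the authors' own units whose scaling is not stated, had a median of 37.1 (quartiles 32.5 and 41.8, range 23.2 to 104.4). The wider regions had a median of 65 (51 and 85.8, range 30.2 to 693.7). All 1568 member scores lay on whole multiples of a step of 2.32 (tolerance 0.05 plus 2% of a step), and ran from 10 to 45 steps with a median of 16. Below the lowest score of a wider region there were 84 members, and above the highest score of a member there were 247 wider regions. The share of promoter regions that were members fell from 97.5% at a score of 32.5 through 66.0% at 41.8 to 42.6% at 46.4 and 13.8% at 55.7.

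**Figure D1:**
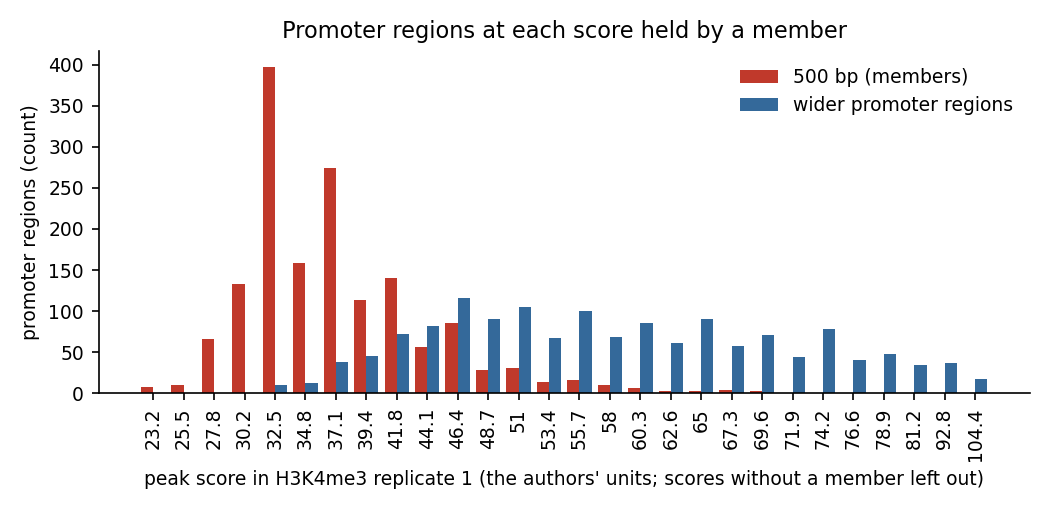
Number of promoter regions of H3K4me3 replicate 1 (vertical axis) at each score that at least 1 member holds (horizontal axis, scores in the authors' units), for members of 500 bp (red) and wider regions (blue). Members peak at 32.5 with 397 regions and thin out above 46.4, where wider regions prevail, and from 32.5 to 55.7 the member bars alternate between taller and shorter.

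Member scores did not decline smoothly. The score of 14 steps (32.5) held 397 members, against 133 at 13 steps and 158 at 15 steps, and 16 steps (37.1) held 274 against 114 at 17 steps. Even multiples of the step made up 65.9% of the members, 58.1% of the wider regions and 69.5% of the 2743 regions of 500 bp in other annotation classes. An excess of even steps was therefore present in all 3 sets, and what 1 step stands for is unknown.

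Most members lay over the TSS, a position that the promoter class used to choose them already favours. Their centres had a median distance of -15 bp from the nearest TSS (quartiles -148 and 49.25 bp, range -998 to 866 bp), and 895 of 1568 (57.1%) were centred upstream. With 250 bp to either side of the centre, 1261 members (80.4%) covered the TSS, and 884 (56.4%) were centred within 100 bp of it. For the wider regions the median was -7 bp, 54.1% were centred upstream, 61.0% lay within 100 bp, and 92.7% covered the TSS, their larger width giving more room for it. Far from the TSS the members lay mostly upstream, with 83 centred from -1000 to -500 bp and 160 from -500 to -250 bp, against 65 at 250 bp or more downstream. The promoter class itself is lopsided: of the 653 regions of 500 bp that lay within 1 kb of a TSS but in other classes, 1 was centred upstream. Median scores in the 7 position bins were 34.8 or 37.1.

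Each member had a nearest transcript of its own. The 1568 members named 1568 different nearest transcripts, and 43 of these transcripts were also nearest to a region outside the set. In 934 members (59.6%) the transcript of the promoter annotation was not the one nearest to the centre. The lists pair no transcript with a gene name, and regions are therefore given by position on the build GRCm39.

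No chromosome was seen to hold a share of members apart from the rest, but the intervals are wide and no test was made. Members were found on each of the 19 autosomes and on the X chromosome, from 138 on chromosome 11 and 129 on chromosome 2 down to 40 on the X. As a share of all promoter regions of a chromosome they ranged from 39.5% (exact 95% interval 32.2 to 47.3%) on chromosome 3 to 51.7% (40.9 to 62.3%) on chromosome 18. The whole-list share of 44.1% lay inside the interval of each of these 20 chromosomes. The X held 2.55% of the members and 2.56% of the wider regions. Members stood mostly alone: the nearest other region of the list was a median of 45964 bp away, 226 members (14.4%) had one within 10 kb, and the closest gap was 504 bp. For the wider regions the median was 44256 bp, with 13.4% inside 10 kb.

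**Figure D2:**
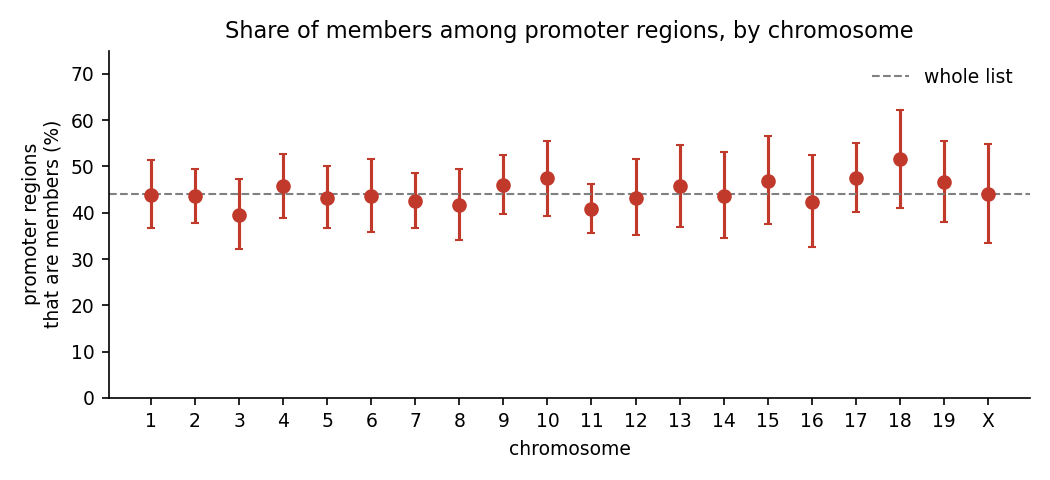
Percentage of the promoter regions of each chromosome that are 500 bp wide (points, with exact 95% binomial intervals as bars), and the share in the whole list (dashed line). The interval of every chromosome shown includes the whole-list share of 44.1%.

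Few members, like few regions of the whole list, were found again in the second H3K4me3 library, which lists 320 regions. A region of replicate 2 overlapped 38 of 1568 members by at least 1 bp (2.42%, exact 95% interval 1.72 to 3.31%). Over all 8129 regions of the list it was 231 (2.84%, 2.49 to 3.23%). Over the 2743 regions of 500 bp in other classes it was 16 (0.583%). Over all 3559 promoter regions the share was 5.00%, and over the wider regions it was 140 of 1991 (7.03%, 5.95 to 8.24%). Ignoring score, the odds of being found were 0.329 times those of the wider regions (0.222 to 0.477, Fisher's exact test, two-sided, adjusted p = 6.44e-10). At equal score this difference was not seen. Members and wider regions of exactly the same score had a common odds ratio of 1.23 (0.680 to 2.19, two-sided exact conditional test over 25 scores with 1484 members and 1474 wider regions, p = 0.480, adjusted p = 0.537). The interval still allows members to be found 0.680 to 2.19 times as often in terms of odds, so it does not show that the sets are alike. P-values here are adjusted by Benjamini-Hochberg over 6 tests, and each compares regions of these lists, not animals.

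Whether the narrow width is shared between the libraries was not tested. In replicate 2, where 500 bp was also the smallest width, 193 of the 221 promoter regions (87.3%) had that width. So had 275 of all its 320 regions (85.9%), a share near that of its promoter regions. Of these 193 narrow regions, 35 (18.1%) lay on a member, 112 (58.0%) on a wider region of replicate 1, 10 on a region of another class and 36 on none. Members were 38 of the 178 promoter regions of replicate 1 found in replicate 2 at any width (21.3%). This share leaves out regions of other classes and places with no region, which the 18.1% counts, so the shares are not directly comparable. The counts to set beside it are the 35 on members and the 112 on wider regions. Seen from replicate 1, the replicate 2 region was 500 bp wide at 36 of 38 members (94.7%, 82.3 to 99.4%) and at 119 of 140 wider regions (85.0%, 78.0 to 90.5%), and these intervals overlap. The 38 replicate 2 regions on members had a median replicate 2 score of 85.1, which is also the median of that whole list, and reached 113.4 at most, against 1149 for those on wider regions.

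TAF4b peaks were present at 223 of the 1568 members in 1 list or both. A peak of replicate 1 overlapped 121 members (7.72%, 6.44 to 9.15%), against 12.9% of all promoter regions and 337 of 1991 wider regions (16.9%, 15.3 to 18.7%). A peak of replicate 2 overlapped 156 members (9.95%, 8.51 to 11.5%), against 15.8% of all promoter regions and 407 wider regions (20.4%, 18.7 to 22.3%). Either list marked 223 members (14.2%, 12.5 to 16.05%), against 21.5% of all promoter regions, and both lists marked 54 (3.44%, 2.60 to 4.47%), against 7.16%. In each of these counts the members lay below the share of all promoter regions. Over all 8129 regions of the list the shares were 6.43% for replicate 1, 7.81% for replicate 2, 10.7% for either list and 3.53% for both. Members lay above these shares for each list alone and for either list, and close to the share for both. Of the 2743 regions of 500 bp in other classes, 22 (0.802%) held a peak of either list.

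At equal score no difference in TAF4b between members and wider regions was detected. The common odds ratio for a peak of either list was 1.12 (0.833 to 1.50, exact conditional test over the same 25 scores, p = 0.470, adjusted p = 0.537), and for peaks of both lists it was 0.850 (0.502 to 1.42, same exact test, adjusted p = 0.537). With score ignored the ratios were 0.442 (0.370 to 0.527, two-sided Fisher's exact test, adjusted p = 1.16e-20) and 0.318 (0.229 to 0.435, Fisher's exact test, adjusted p = 2.23e-14). With TAF4b replicate 1 alone the equal-score ratio was 0.961 (0.662 to 1.39), and with replicate 2 alone it was 1.11 (0.793 to 1.56). A wider region has more room for a peak. When a peak had to be centred within 250 bp of the region's centre for both sets, the equal-score ratio for either list was 1.25 (0.920 to 1.70, exact conditional test, adjusted p = 0.228). The ratios without score passed the threshold, and each equal-score interval given here includes 1.

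**Figure D3:**
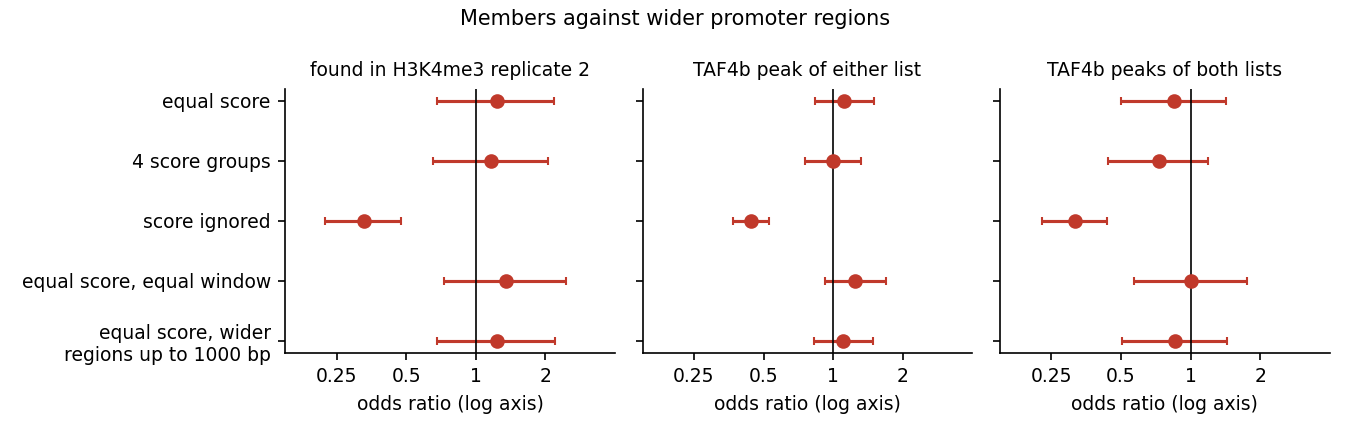
Odds ratios (points, log axis) with 95% intervals (bars) for members against wider regions, for being found in H3K4me3 replicate 2 and for holding a TAF4b peak of either or both lists, under 5 ways of treating score and width. Ratios lie at 0.318 to 0.442 with score ignored, and every interval that takes score into account includes 1.

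The equal-score comparison is thin at both ends of the scale. The 217 members of 10 to 13 steps and the 555 of 14 to 15 steps faced 1 and 22 wider regions, and among the 1351 wider regions of 24 steps or more there were 53 members. At 14 to 15 steps, 59 of 555 members (10.6%, 8.19 to 13.5%) and 6 of 22 wider regions (27.3%, 10.7 to 50.2%) held a TAF4b peak of either list. At 16 to 17 steps the shares were 58 of 388 members (14.9%) and 15 of 84 wider regions (17.9%). At 18 to 19 steps they were 32 of 196 (16.3%) and 21 of 154 (13.6%), at 20 to 23 steps 38 of 159 (23.9%) and 71 of 379 (18.7%), and from 24 steps 15 of 53 (28.3%) and 429 of 1351 (31.8%). Neither set was the higher one throughout. These score bands were chosen after the scores were seen.

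**Figure D4:**
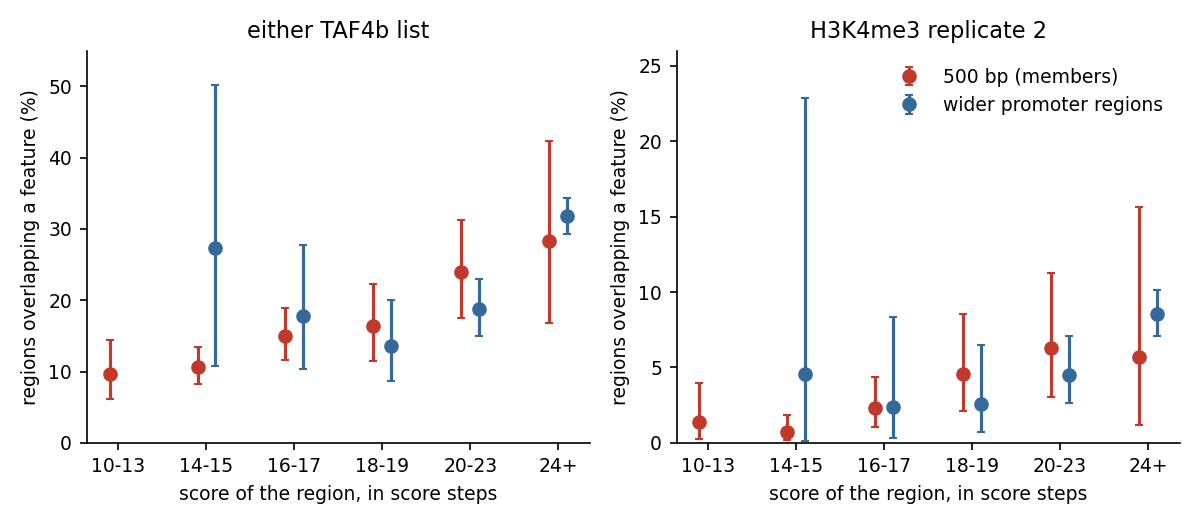
Percentage of regions that overlap a TAF4b peak of either list (left) or a region of H3K4me3 replicate 2 (right), by score band in steps of 2.32, for members (red) and wider regions (blue) with exact 95% intervals. TAF4b shares of the members go from 9.68% in the lowest band to 28.3% in the highest, and the intervals of members and wider regions overlap in each band where both are drawn; the band of 10 to 13 steps has 1 wider region, which is not drawn.

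Within the members, at constant width, regions of higher score were shared more often. Score limits at the quartiles of all promoter regions (37.1, 46.4 and 69.6) left 1046 members in the lowest group and 7 in the highest. A TAF4b peak of either list was present at 116 of the 1046 (11.1%, 9.25 to 13.2%) and at 4 of the 7 (57.1%, 18.4 to 90.1%), which is 10.6 times the odds (1.78 to 73.6, Fisher's exact test, two-sided; exact p = 0.00428, adjusted p = 0.0128). Without TAF4b replicate 2 this ratio was 6.43 (0.601 to 40.3, Fisher's exact test, adjusted p = 0.122), and it rests on 7 regions. The middle groups held a peak at 76 of 396 members (19.2%, 15.4 to 23.4%) and 27 of 119 (22.7%, 15.5 to 31.3%).

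A division at the members' median score uses all of them. Of the 522 members above 37.1, 107 held a TAF4b peak of either list (20.5%, 17.1 to 24.2%), against 116 of the 1046 at or below it, the lowest group again (odds ratio 2.07, 1.53 to 2.78, two-sided Fisher's exact test, adjusted p = 6.71e-06). Each list showed this: replicate 1 marked 11.5% (8.89 to 14.6%) and 5.83% (4.49 to 7.43%), and replicate 2 marked 14.8% (11.8 to 18.1%) and 7.55% (6.03 to 9.32%). H3K4me3 replicate 2 found 27 of the 522 (5.17%, 3.44 to 7.44%) and 11 of the 1046 (1.05%, 0.526 to 1.87%), 5.13 times the odds (2.44 to 11.6, Fisher's exact test, adjusted p = 1.08e-05). Between the highest and the lowest of the 4 groups, 2 of 7 and 11 of 1046 were found, 36.8 times the odds (3.18 to 256, Fisher's exact test, adjusted p = 0.0128), again with 7 regions on one side. Among wider regions, 88 of 816 (10.8%) of the highest group and 3 of 61 (4.92%) of the lowest were found.

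TAF4b at members varied with where the region lay around the TSS. The share with a peak of either list was 2 of 83 (2.41%, 0.293 to 8.44%) for centres 1000 to 500 bp upstream and 22 of 160 (13.8%, 8.82 to 20.1%) from 500 to 250 bp upstream. It was 48 of 235 (20.4%, 15.5 to 26.2%) from 250 to 100 bp upstream, 72 of 417 (17.3%, 13.8 to 21.2%) in the last 100 bp before the TSS and 67 of 462 (14.5%, 11.4 to 18.1%) in the first 100 bp after it. Farther downstream it was 11 of 146 (7.53%, 3.82 to 13.1%) up to 250 bp and 1 of 65 (1.54%, 0.0389 to 8.28%) beyond. The highest share thus lay upstream of the TSS, with intervals that overlap those of the 2 bins next to the TSS. The TAF4b lists as a whole had median distances of -59 bp (replicate 1) and -67 bp (replicate 2) from the TSS. A region of 500 bp centred far from the TSS does not reach that place, so low shares in the outer bins are partly built in.

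The planned comparison of 884 members centred within 100 bp of a TSS with the other 684 gave 141 (15.95%) and 82 (11.99%) with a peak, or 1.39 times the odds (1.03 to 1.89, Fisher's exact test, two-sided; exact p = 0.0286), which did not pass after adjustment (adjusted p = 0.0573). With a limit of 250 bp, at which a member of 500 bp just reaches the TSS, 198 of 1261 (15.7%, 13.7 to 17.8%) and 25 of 307 (8.14%, 5.34 to 11.8%) held a peak (odds ratio 2.1, 1.35 to 3.39, Fisher's exact test, adjusted p = 0.00299). With a limit of 50 bp the ratio was 1.05 (0.772 to 1.43). These ratios also depend on whether a member reaches the place near the TSS where most TAF4b peaks lie. Regions of 500 bp in other annotation classes that covered a TSS held a peak in 12 of 240 cases (5%, 2.61 to 8.57%). All but 1 of these were centred more than 100 bp downstream of the TSS. Members centred 100 to 250 bp downstream held a peak in 11 of 146 cases (7.53%, 3.82 to 13.1%), and these intervals overlap.

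**Figure D5:**
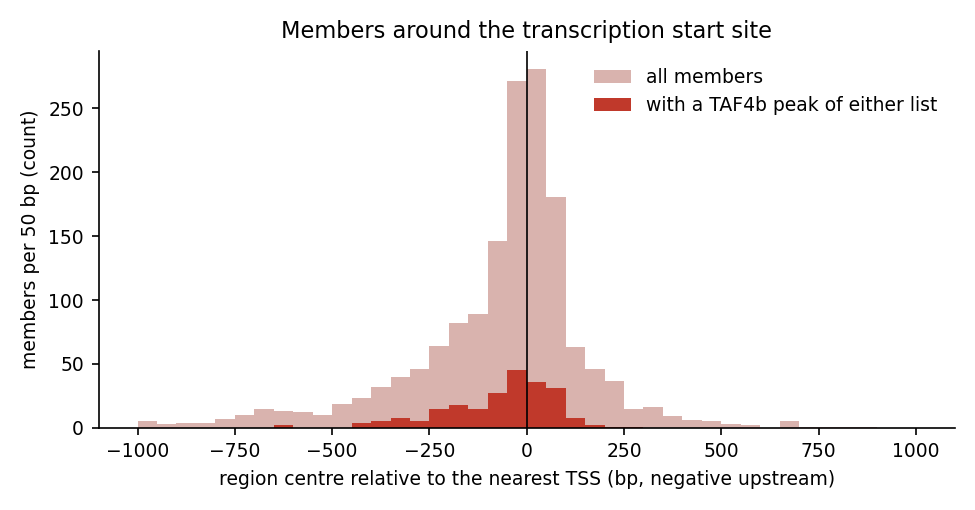
Number of members per 50 bp (vertical axis) by the position of their centre relative to the nearest TSS (horizontal axis, bp, negative upstream), for all 1568 members (light) and the 223 with a TAF4b peak of either list (dark). Counts are highest at the TSS, and members with TAF4b extend farther upstream than downstream, with 1 centred 250 bp or more downstream and 24 more than 250 bp upstream.

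The TAF4b peaks in members, like the TAF4b lists as a whole, lay mostly upstream of their nearest TSS. That TSS was also the member's nearest for 70 of 121 pairs of replicate 1 peak and member. Distances of peaks and members below can therefore refer to different TSS. The 121 peaks of replicate 1 in members had a median distance of -68 bp from the TSS and 83.5% were upstream, and the 350 peaks in wider regions had -54.5 bp and 78.3%. For replicate 2 the 157 peaks in members had -68 bp and 85.4%, and the 416 in wider regions had -59 bp and 84.1%. The whole lists were close to these values, with -59 bp and 78.8% in replicate 1 and -67 bp and 83.3% in replicate 2. Peaks were centred a median of 119 bp (replicate 1) and 111 bp (replicate 2) from the member's centre, to either side. Peak scores in members had a median of 8.08 in replicate 1 (range 5.39 to 15.8) and 18.3 in replicate 2 (12.2 to 45.7). In wider regions these medians were 8.08 and 19.3, and in peaks outside every region of H3K4me3 replicate 1 they were 7.7 and 18.3. The highest scores of the TAF4b lists, 28.9 and 119.7, lay outside the H3K4me3 replicate 1 regions.

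The TAF4b lists marked partly the same members. Of the 156 members with a replicate 2 peak, 54 also had one of replicate 1 (34.6%, 27.2 to 42.6%), against 67 of the 1412 without (4.75%, 3.70 to 5.99%). The 54 were 44.6% of the members with a replicate 1 peak. Among wider regions the 201 with both were 49.4% of those with a replicate 2 peak and 59.6% of those with a replicate 1 peak. The members found in H3K4me3 replicate 2 held TAF4b of either list in 9 of 38 cases (23.7%, 11.4 to 40.2%) and the other members in 214 of 1530 (13.99%, 12.3 to 15.8%), intervals that overlap. The remaining 1316 members (83.9%, 82.0 to 85.7%) were in none of the other 3 lists, against 69.2% of the wider regions.

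The member with the highest score, at chr7:110721694-110722194, had a score of 104.4 and was centred at -53 bp. It held a TAF4b peak of replicate 2 with a score of 23.3 at -83 bp and none of replicate 1. The second, at chr8:123829005-123829505, had a score of 92.8, a replicate 2 region of 500 bp with a score of 92.2 in the H3K4me3 library, and a TAF4b replicate 2 peak of score 16.2 at 15 bp downstream. The next by score, at chr5:115148708-115149208 and chr19:8944266-8944766, had scores of 81.2 and 78.9 and lay in no other list. The fifth, at chr8:71245228-71245728, had a score of 76.6, was centred at -397 bp and held a TAF4b replicate 1 peak of score 8.85 at -517 bp. Of these 5, then, 3 held TAF4b, each in 1 list.

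All 4 lists met at 3 members. The highest-scoring lay at chrX:36373676-36374176, with a score of 71.9 and its centre 49 bp downstream of the TSS of ENSMUST00000076265. Its TAF4b peaks had scores of 11.2 and 27.4 at -182 and -143 bp, and the replicate 2 H3K4me3 region, also 500 bp wide, had a score of 99.3. The member at chr8:106553569-106554069 had a score of 46.4, TAF4b scores of 10.4 and 24.3, both 67 bp downstream, and a replicate 2 region with a score of 99.3. The member at chr9:35121852-35122352 had the same score of 46.4, TAF4b scores of 11.9 and 35.5 at -1 and 0 bp, and a replicate 2 region of 626 bp with a score of 113.4. In this last one both TAF4b peaks were centred on an annotated TSS or next to it.

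After the X-linked member, the highest-scoring with peaks in both TAF4b lists were at chr7:100020868-100021368 with a score of 60.3 and chr10:61515800-61516300 with 58. Next came chr11:78073944-78074444 and chr11:96868531-96869031 with 55.7 each. TAF4b scores of all these members after the X-linked one were 8.47 to 10.4 in replicate 1 and 14.2 to 23.3 in replicate 2. At chr10:61515800-61516300 the peaks of both lists were centred at the same 38 bp downstream of the TSS, and at chr11:96868531-96869031 they lay at -269 and -274 bp. Members found in H3K4me3 replicate 2 without TAF4b included chr3:96079490-96079990 (score 58, and 99.3 in replicate 2), chr11:53870744-53871244 (53.4 and 85.1) and chr10:80128224-80128724 (51 and 99.3). High-scoring members in no other list, besides those on chromosomes 5 and 19, were chr7:82297492-82297992 with 74.2, and chr6:35110543-35111043 and chr6:113283315-113283815 with 69.6 each.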

How the data were processed

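Lists were used for H3K4me3 and TAF4b, 2 libraries each. The authors deposited 1 annotated list per library, not pooled, with a peak score, position, annotation and distance to the nearest TSS per feature, per the file headers, whose column names are those of HOMER. The submitters' processing notes name Trim Galore 0.5.0, Bowtie2 2.3.0, SAMtools 1.9, HOMER 4.10 and GRCm39; peak-calling settings and the scaling of the score are not given in the sources used here. A fixed smallest width of 500 bp sets what counts as narrow. Distances were taken to run from a feature's centre. A gene table of GRCm38.p6 matched 0 of 13528 transcript identifiers, so the planned gene lists were not counted, and no genome of the build was used, so no sequence is shown.

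Overlap meant at least 1 bp. Sets were compared by two-sided exact conditional tests over strata of equal score (R 4.3.3, mantelhaen.test) or Fisher's exact test, adjusted over 6 tests with a threshold of 0.05, after tests on simulated data. In alternatives, a p took the place of the main one in that adjustment. Shares have exact Clopper-Pearson 95% intervals, which cover counting error only. Python 3.11.15, pandas 2.3.3, SciPy 1.17.1 and matplotlib 3.10.9 were used. Members, comparisons and lists were chosen with earlier results of these data known. Named regions are the 5 highest-scoring members, and likewise those with both TAF4b lists, in H3K4me3 replicate 2 and in no other list, the members in all lists, and the first 3 by position on each side of the width limit.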

Additional observations from a re-analysis of the deposited data

How the results depend on the processing

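Of 55 alternatives to 6 results, 52 were planned and 3, which joined the equal window with the limit of 1000 bp, were chosen after seeing the data. Direction and side of the threshold were kept in 44. Not all of these could have changed a result, so the count is no measure of robustness by itself. Keeping assembled chromosomes only left all 1568 members and 1990 of the 1991 wider regions. Scores above the minimum plus 2 steps left out only members at scores with no wider region, which the equal-score tests do not use. Ignoring score turned the odds ratio of members to wider regions to 0.329 for H3K4me3 replicate 2 and 0.442 for TAF4b of either list, and brought TAF4b of both lists to 0.318, past the threshold. With strata of 4 score groups the ratio for either list was 1. For both lists it was 1.007 with the equal window and 1.003 with that window and the limit of 1000 bp; the main ratios here did not differ from 1 either, so a turn in direction says little. Leaving out each TAF4b replicate gave 0.961 to 1.11 for members against wider regions, 6.43 to 9.14 for the highest against the lowest score group, where the lower value did not pass, and 1.13 to 1.56 for centres within 100 bp of a TSS. That last comparison passed with promoters taken as centres within 1 kb (2.37) and with scores above the minimum plus 2 steps (1.43). It also passed with a limit of 250 bp (2.1). The cause was not tested. The 1 kb setting admits 653 regions of 500 bp from other annotation classes, of which 17 (2.60%) held a TAF4b peak. That setting compared 885 regions with 1336, in place of 884 with 684. Keeping only regions whose nearest transcript no other promoter region shares removed 0 regions. No paired analysis was possible because the members come from H3K4me3 replicate 1 alone, so no test spans pairs of replicates. With depth unknown, a region missing from a list may be unmarked or undetected, above all for the short list of H3K4me3 replicate 2.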
